A study of Mus musculus with 17 samples.

Results

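The genes described here are 36 imprinted mouse genes, including H19 and Meg3, out of 47729 genes counted in the series. They were chosen by symbol, from known imprinted clusters and single imprinted loci, and each symbol was matched to 1 Ensembl gene through GENCODE M21. The files held counts for each of the 36 genes, and 33 of them had enough counts to be tested. Rtl1, Asb4 and Airn did not pass the count filter and are given by their levels only.

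An imprinted gene is expressed mainly from the copy inherited from the mother or mainly from the copy inherited from the father. The choice is held by differentially methylated control regions, which keep their parental methylation through the wave of demethylation that follows fertilisation, with the help of the zinc finger protein ZFP57 and its partner TRIM28. The regions often act at a distance, through an insulator (Igf2 and H19) or a long noncoding RNA (Airn, Kcnq1ot1), so that neighbouring genes of 1 cluster are expressed from opposite parental copies. Mouse embryonic stem cells are known to lose imprinted methylation in some cultures, and many imprinted genes act in fetal growth, the placenta and the brain. Each count here sums both parental copies, so the data give the level of a gene and not its allelic origin.

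The study compared embryonic stem cells held in several media with cells moved towards the primed state of pluripotency. Two-line libraries came from the lines R1 and CGR8, each 1 clonal line, in serum-free N2B27 medium with the cytokine LIF, on gelatin with basement membrane extract. L2i cells had the GSK3 inhibitor CHIR99021 at 3 uM and the MEK inhibitor PD325901 at 0.1 uM, for 10 passages in R1 and 8 in CGR8 (n = 2, 1 library per line, as in each group below). LIM cells had PD325901 at 0.1 uM and the Wnt secretion inhibitor IWP2 at 2 uM, for 4 passages in R1 and 6 in CGR8, after 5 passages in 2i. LFAI cells had IWP2 at 2 uM, FGF2 at 12 ng/ml and Activin A at 20 ng/ml, for 35 hours or for 4 days. Their passages in 2i were 9 in R1 and 7 in CGR8 for 35 hours, and 3 in R1 and 9 in CGR8 for 4 days. Passage numbers ran from 26 to 34 and differed between the lines and the groups. Both time courses used R1 at passage 32 on gelatin with fetal calf serum, with 1 L2i library at day 0 and 1 library per day from day 1 to day 4 in LIM and in LFAI. Time course passages in 2i were 5 at day 0, 4 at days 1 to 3 and 3 at day 4. No label says that the libraries of a group came from independent cultures beyond the separate lines, so p-values measure the spread between these libraries, which may be partly technical. LIF was present in every group.

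The 8 two-line libraries held 15135012 to 22593805 gene counts and the 9 time course libraries 12889029 to 13667302. In the two-line libraries, summed pluripotency markers (Pou5f1 and Sox2) stood at 1415 to 2127 CPM (gene counts scaled to a common library total). The 6 naive markers summed to 4350 and 4352 CPM in L2i and to 57.6 and 61.2 CPM in LFAI at 4 days, and the 4 post-implantation epiblast markers ran the other way. The time course library labelled LFAI day 1 went against its label: its log2 CPM correlated at 0.990 with LIM day 1 and at 0.941 with LFAI day 2. The FGF target Dusp6, chosen for this check after its values were seen, was at 9.23 CPM there, at 9.90 CPM at LIM day 1 and at 78.3 CPM at LFAI day 2. It is called the library labelled LFAI day 1 below, and statements on the LFAI time course cover days 2 to 4.

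Imprinted promoters can carry the 6-base site of ZFP57, TGCCGC, which the protein binds when the CG in it is methylated. Windows of 250 bases before the RefSeq start sites (GRCm38.p6) were found for 30 of the 36 genes, and Cdkn1c, H19, Impact, Peg10, Rtl1 and Sgce had none in the table used. TGCCGC on either strand stood in 12.24% of the 49 member windows and in 8.68% of the 32817 windows of all genes, with a median of 8 and 6 CG dinucleotides. The 5 genes with a match in any window were Meg3, Mest, Plagl1, Zdbf2 and Zim1. A match is a run of letters and not a measured site. The windows of 3 genes whose levels carry the results are shown 5′ to 3′ on the gene's strand, with TGCCGC or its reverse complement GCGGCA in capitals: Meg3, from chr12:109540746-109540995 on the plus strand, whose RNA was higher in each group outside L2i; Mest, from chr6:30737800-30738049 on the plus strand, likewise higher and with 2 matches; and Grb10, from chr11:12037421-12037670 on the minus strand, with 40 CG dinucleotides, no match, and a rise in LFAI by 4 days.
Meg3: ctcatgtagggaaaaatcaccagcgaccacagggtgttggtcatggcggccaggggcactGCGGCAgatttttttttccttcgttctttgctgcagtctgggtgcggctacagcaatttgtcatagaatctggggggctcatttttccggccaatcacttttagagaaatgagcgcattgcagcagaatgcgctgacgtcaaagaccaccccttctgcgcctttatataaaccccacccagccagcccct
Mest: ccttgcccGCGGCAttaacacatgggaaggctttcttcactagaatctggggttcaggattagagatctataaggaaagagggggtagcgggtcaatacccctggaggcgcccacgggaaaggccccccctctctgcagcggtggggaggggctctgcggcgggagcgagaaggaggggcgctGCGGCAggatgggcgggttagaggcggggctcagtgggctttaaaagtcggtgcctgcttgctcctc
Grb10: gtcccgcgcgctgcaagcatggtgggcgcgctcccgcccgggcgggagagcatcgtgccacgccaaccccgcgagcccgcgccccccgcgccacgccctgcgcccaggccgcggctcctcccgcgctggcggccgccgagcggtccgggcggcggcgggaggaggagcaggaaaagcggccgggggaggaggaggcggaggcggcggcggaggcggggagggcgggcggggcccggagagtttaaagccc

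Against L2i, more of the tested imprinted genes were called higher than lower in LIM, after 35 hours of LFAI and after 4 days. In LIM, 20 of the 33 were higher and 2 were lower at an adjusted p under 0.05 (edgeR quasi-likelihood test, Benjamini-Hochberg), where 19.1% of the 15525 tested genes were called (11.3% higher and 7.81% lower). The median log2 fold was 1.87 over the 33 genes and 0.01 over all tested genes. After 35 hours of LFAI, 8 were higher and 1 was lower, against a background of 14.5% (7.35% higher and 7.16% lower), and the median log2 fold was 0.49. After 4 days, 16 were higher and 6 were lower, against a background of 44.8% (21.5% higher and 23.3% lower), with a median of 0.98. The median over all genes was -0.00 in both. These 3 comparisons share the L2i libraries.

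Between 35 hours and 4 days of LFAI, 7 of the 33 genes were higher and 5 were lower at 4 days, against a background of 36.8% (17.7% higher and 19.0% lower), and the median log2 fold was -0.05. LFAI at 4 days against LIM gave 4 higher and 10 lower, against a background of 29.5% (12.3% higher and 17.2% lower), and a median of -0.49. One test over the 4 groups found a difference in 26 of the 33 genes, against a background of 48.3% of all genes. The 7 genes that it did not call were Ndn, Mkrn3, Ube3a, Kcnq1ot1, Igf2r, Impact and Slc38a4.

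The counts rested on single libraries to a degree, since each group had 2. Without R1 in L2i, LIM had 13 genes higher and 1 lower. The 2 lower genes also became 1 without R1 or without CGR8 in LIM. At 35 hours of LFAI, leaving out R1 in L2i gave 5 higher and 0 lower, and leaving out R1 at 35 hours gave 0 lower. The 5 lower genes of 4 days against 35 hours became 2 without CGR8 at 4 days or R1 at 35 hours. They became 3 without R1 in L2i, R1 at 4 days or CGR8 at 35 hours. Against LIM, the 4 higher genes became 1 without CGR8 at 4 days and 2 without R1 at 4 days or R1 in LIM. The 10 lower genes became 4 without CGR8 at 4 days and 6 without R1 in LIM. With the line as a block, 3 genes were lower at 35 hours, since Cobl and Igf2r joined Plagl1.

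**Figure D1:**
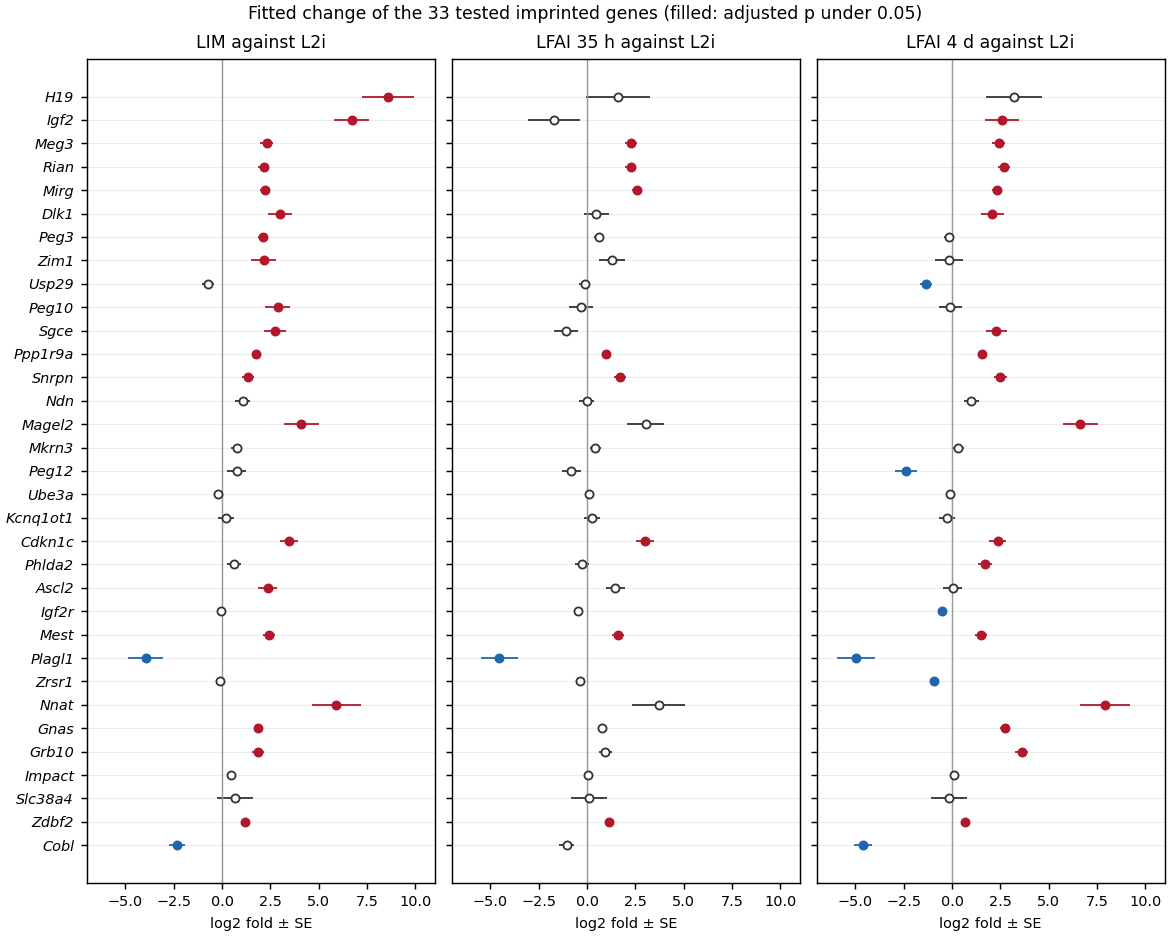
Fitted log2 fold ± SE of the 33 tested imprinted genes (rows) in LIM, LFAI at 35 hours and LFAI at 4 days against L2i (panels), where filled points have an adjusted p under 0.05, red higher and blue lower. In LIM 20 points are filled on the right and 2 on the left, and at 35 hours 8 and 1.

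H19 (ENSMUSG00000000031, chr7:142575529-142578143, minus strand, GRCm38) and Igf2 (ENSMUSG00000048583, chr7:142650766-142666816, minus strand) share a cluster on chromosome 7. H19 is a maternally expressed long noncoding RNA that hosts a microRNA, and Igf2 encodes the paternally expressed growth factor IGF2. H19 was at 0.643 CPM in R1 and at 0 counts in CGR8 in L2i, where 3 counts would be 0.199 CPM. It was at 241 and 51.6 CPM in LIM, at 2.15 and 0.130 CPM at 35 hours of LFAI and at 5.92 and 0.980 CPM at 4 days. Both LIM libraries were far above the other 6, and R1 was above CGR8 in each medium. The log2 fold of LIM against L2i was 8.60 ± 1.36 (SE, adjusted p = 0.0035), from means of 146 ± 134 and 0.322 ± 0.455 CPM (SD, n = 2).

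Igf2, like H19, was highest in LIM and next highest at 4 days, by group means. It was at 1.70 CPM in R1 and 0.0664 CPM in CGR8 in L2i, at 157 and 47.3 CPM in LIM, at 0.326 and 0.260 CPM at 35 hours and at 8.31 and 3.46 CPM at 4 days. LIM was again above the other groups in both lines, and the lowest 4 days library was above both L2i libraries. LIM exceeded L2i by a log2 fold of 6.70 ± 0.92 (adjusted p = 0.0019), and LFAI at 4 days exceeded L2i by 2.59 ± 0.89 (adjusted p = 0.041) and 35 hours by 4.30 ± 1.11 (adjusted p = 0.016). Against LIM, 4 days of LFAI was lower by log2 folds of -5.39 ± 1.08 for H19 and -4.12 ± 0.78 for Igf2.

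These values moved with single libraries. Limma-voom did not call H19 in LIM. Without R1 in LIM the LIM against L2i folds were 7.14 for H19 and 5.63 for Igf2, without CGR8 in LIM they were 9.32 and 7.33, and without CGR8 in L2i they were 7.80 and 5.90. Against CGR8 in L2i alone, where H19 had 0 counts and Igf2 had 1, LIM summed over both lines was at least 721-fold higher for H19. The Igf2 ratio was 1520 (95% counting interval 273 to 60050). Both ratios also hold the line difference, since R1 was above CGR8 in LIM. Within CGR8 the log2 folds of LIM over L2i were 8.73 for H19 and 7.98 for Igf2, with a prior count of 2. The 4 days call of Igf2 against L2i was lost without CGR8 in L2i (1.78), R1 at 4 days (1.83) or R1 at 35 hours (2.56), and in 3 other alternatives. Against CGR8 in L2i alone, with its 1 count, the Igf2 ratio of 4 days summed over both lines was 89.3 (15.8 to 3546). Its call against 35 hours was lost without R1 at 4 days (3.54), R1 at 35 hours (4.43) or CGR8 at 35 hours (4.14). Against LIM, the H19 call was lost without CGR8 at 4 days (-4.63) or R1 in LIM (-3.91), and was -7.20 without R1 at 4 days and -6.11 without CGR8 in LIM. For Igf2 it was lost without CGR8 at 4 days (-3.63), and was -3.02 without R1 in LIM, -4.88 without R1 at 4 days and -4.74 without CGR8 in LIM.

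H19 after 4 days of LFAI against L2i was not called by the main edgeR fit, which had no line term (log2 3.20 ± 1.44, adjusted p = 0.10). It was called with the line as a block (3.35, adjusted p = 0.00032), with no filter on low counts (3.18, adjusted p = 5.3e-07) and with the time course libraries added (3.40, adjusted p = 0.035). The unfiltered edgeR fit gave far smaller adjusted p-values elsewhere too, as for Slc38a4 between the lines (1.3e-32, where the main fit gave 0.15). The block also called H19 higher at 4 days than at 35 hours (1.64, adjusted p = 0.0093). In the time courses, with 1 library per point and no test, H19 was at 0.585 CPM at day 0. It reached 1.81 CPM at day 4 of LIM (95% counting interval 1.16 to 2.70) and 7.73 CPM (6.34 to 9.33) at day 4 of LFAI. Igf2 went from 3 counts at day 0, 0.219 CPM, to 2.34 CPM in LIM and 4.22 CPM in LFAI at day 4, which are ratios of 10.7 (3.33 to 54.6) and 19.3 (6.28 to 96.0). Both genes were below 3 CPM after 4 days of LIM in this R1 course, while the LIM libraries kept for passages held 47.3 to 241 CPM. Of these, R1 held 241 CPM of H19 and 157 CPM of Igf2. The experiments also differ in coating, sequencing chemistry and passages in 2i, and these cannot be told apart from time in LIM.

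**Figure D2:**
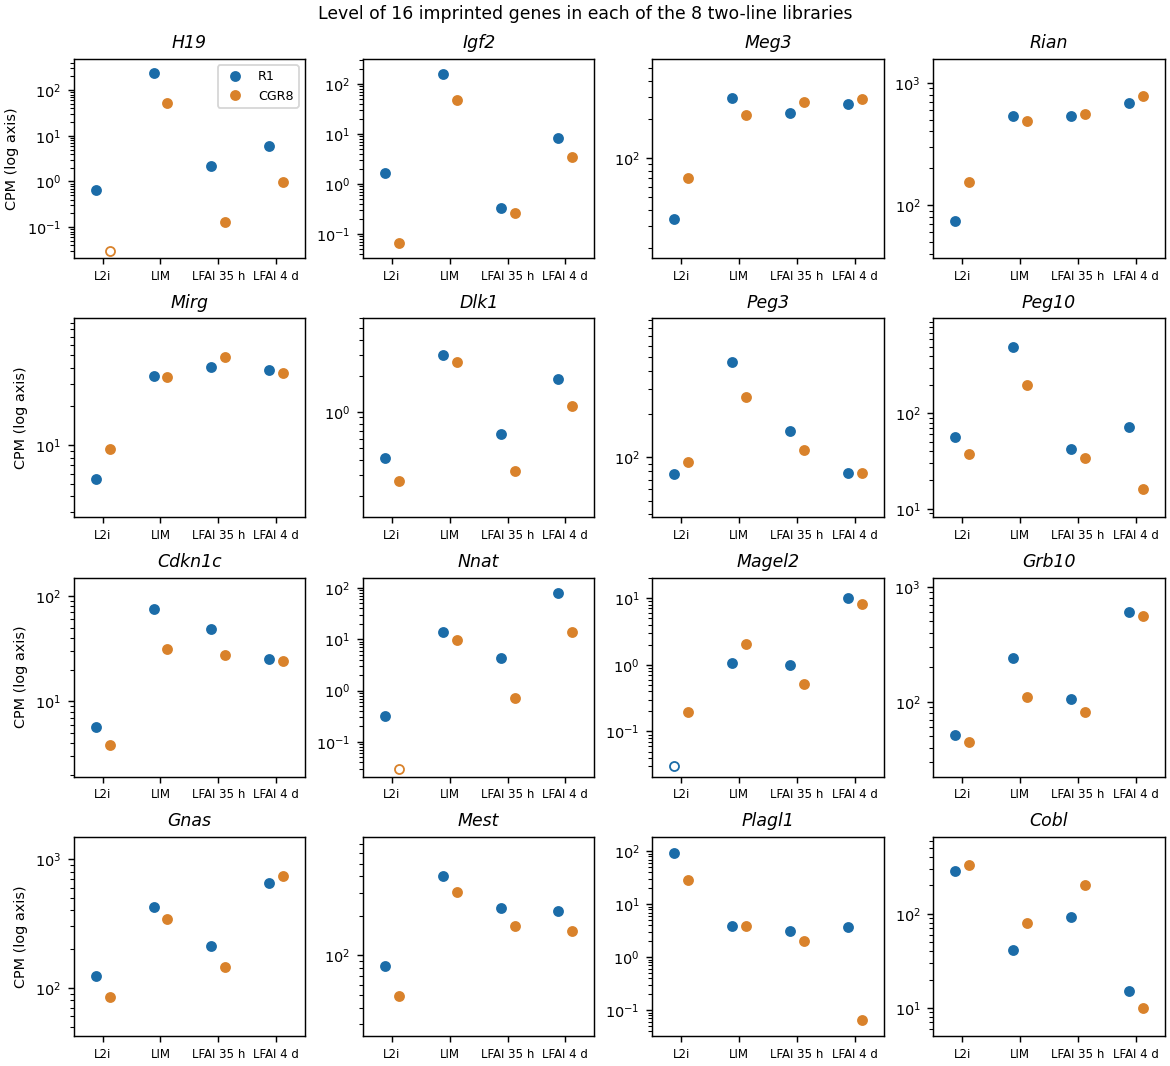
CPM (log axis) of 16 imprinted genes in each of the 8 two-line libraries, R1 in blue and CGR8 in orange, where an open point marks 0 counts and is drawn at the foot of the panel. H19 and Igf2 stand highest in LIM, while Meg3, Rian and Mirg are about level in the 3 media outside L2i.

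Meg3, Rian and Mirg are maternally expressed noncoding RNAs of the Dlk1-Dio3 cluster on chromosome 12. They lie in a row on the plus strand and host small nucleolar RNAs and microRNAs, and silencing of Meg3 is a known mark of induced pluripotent lines that contribute poorly to mice. Meg3 was at 33.6 CPM in R1 and 70.5 CPM in CGR8 in L2i, at 294 and 217 CPM in LIM, at 225 and 274 CPM at 35 hours of LFAI and at 264 and 286 CPM at 4 days. Both L2i libraries were below the other 6, whose levels overlapped between media. Log2 folds against L2i were 2.30 ± 0.31 in LIM, 2.27 ± 0.31 at 35 hours and 2.41 ± 0.31 at 4 days (adjusted p = 0.0019, 0.0025 and 0.00041).

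Rian was at 73.6 and 154 CPM in L2i and between 483 and 781 CPM in the other 6 libraries, and Mirg was at 5.47 and 9.36 CPM and between 33.9 and 48.6 CPM. Their log2 folds against L2i were 2.16 to 2.69 for Rian and 2.22 to 2.60 for Mirg, each called in the 3 media. No fold of the 3 RNAs at 4 days against 35 hours or against LIM was called, with values from -0.26 to 0.53, and LIM against 35 hours was not tested. Leaving out CGR8 in L2i raised the log2 folds of Meg3 to 2.92 in LIM, 2.92 at 35 hours and 3.02 at 4 days and those of Rian to 2.79, 2.92 and 3.31. That CGR8 library held 234 CPM of the 3 RNAs summed, and R1 in L2i held 113 CPM.

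Of the paternally expressed genes of the cluster, Dlk1 encodes a transmembrane protein of the Notch ligand family and Rtl1 a protein derived from a retrotransposon. Dlk1 was low throughout, at 0.414 and 0.266 CPM in L2i, 3.00 and 2.62 CPM in LIM, 0.652 and 0.325 CPM at 35 hours and 1.89 and 1.11 CPM at 4 days. LIM and 4 days stood above L2i in both lines, with log2 folds of 2.99 ± 0.61 (adjusted p = 0.010) and 2.09 ± 0.61 (adjusted p = 0.022). The LIM call was lost without CGR8 in L2i (2.74) or R1 in LIM (2.90), and the 4 days call without R1 in L2i (2.45), CGR8 in L2i (1.83) or R1 at 4 days (1.67). Rtl1 had counts in 1 of the 8 libraries, R1 in LIM, at 0.376 CPM.

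In the time courses the 3 noncoding RNAs reached higher levels in LFAI than in LIM, with 1 library per point. Meg3 went from 141 CPM at day 0 through 223, 261 and 281 CPM to 284 CPM in LIM. In LFAI it was at 495 CPM at day 2, 893 CPM at day 3 and 849 CPM at day 4. Rian was at 203 CPM at day 0, 434 CPM at day 4 of LIM and 1174 CPM at day 4 of LFAI, and Mirg was at 15.5, 28.6 and 70.0 CPM. Dlk1 stood at 0.804 CPM at day 0, 0.983 CPM at day 4 of LIM and 6.87 CPM at day 4 of LFAI. The library labelled LFAI day 1 held 227 CPM of Meg3, near the 223 CPM of LIM day 1. Meg3 at day 0, 141 CPM, was above the 33.6 CPM of R1 in L2i of the two-line set, which had other coating, passages and sequencing chemistry, and these cannot be told apart.

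**Figure D3:**
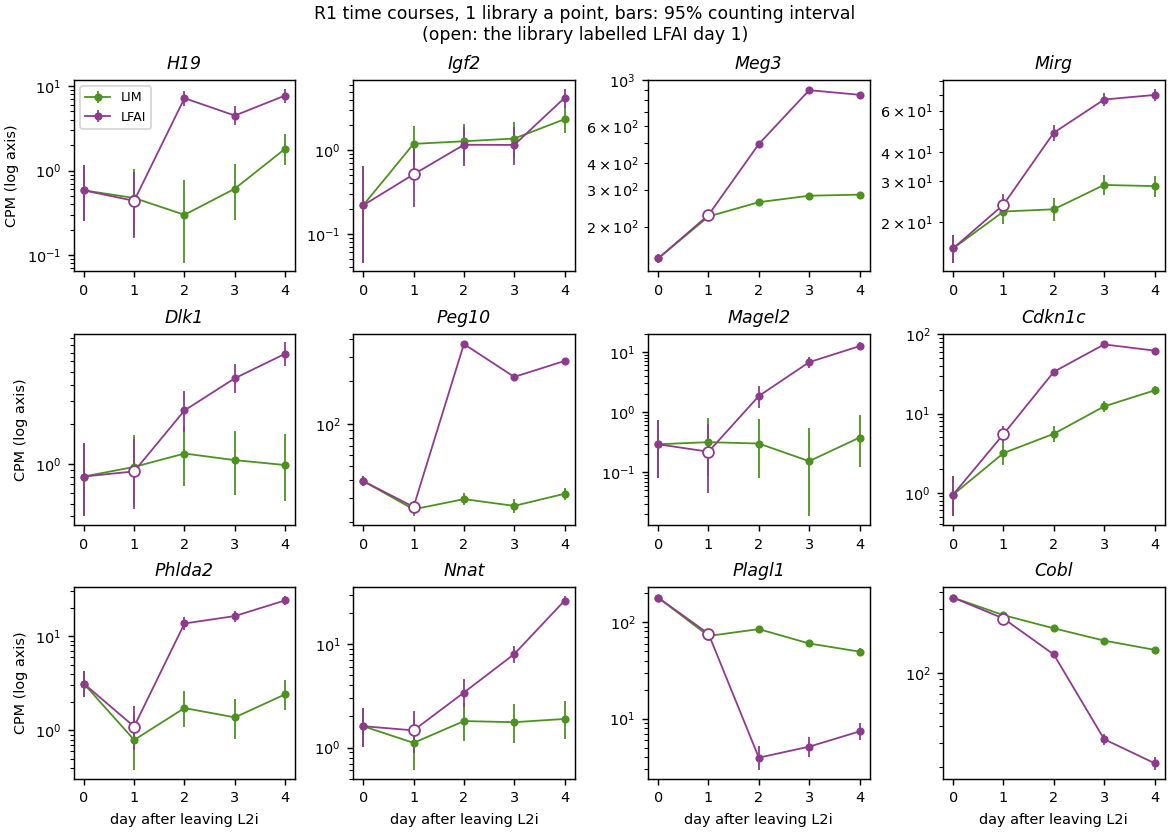
CPM (log axis) of 12 imprinted genes by day after leaving L2i in the R1 time courses, LIM in green and LFAI in purple, 1 library per point with 95% counting intervals. The open point is the library labelled LFAI day 1, which sits beside LIM day 1 for Meg3 (227 and 223 CPM), and Meg3 ends at 849 CPM in LFAI and 284 CPM in LIM.

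Peg3, Zim1 and Usp29 form the Peg3 cluster at the start of chromosome 7. Peg3 encodes a zinc finger protein linked to maternal behaviour and growth, and Usp29 starts head to head with it. Peg3 was at 76.4 and 93.3 CPM in L2i, 464 and 263 CPM in LIM, 152 and 112 CPM at 35 hours and 77.3 and 77.2 CPM at 4 days. LIM was above the other groups in both lines, and at 4 days the lines stood where L2i did. The log2 fold was 2.10 ± 0.27 in LIM against L2i (adjusted p = 0.0014) and -2.23 ± 0.27 at 4 days against LIM (adjusted p = 0.00061). Peg3 was lower at 4 days than at 35 hours by -0.77 ± 0.26 (adjusted p = 0.045), a call lost without R1 in L2i (-0.80), R1 at 35 hours (-0.57), R1 at 4 days (-0.77) or CGR8 at 4 days (-0.79).

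The other genes of the cluster moved apart. Usp29, a ubiquitin protease gene, fell after 4 days of LFAI, from 10.1 and 8.17 CPM in L2i and 9.26 and 7.47 CPM at 35 hours to 3.15 and 3.99 CPM, and was at 5.20 and 5.89 CPM in LIM. Its log2 folds were -1.35 ± 0.30 against L2i (adjusted p = 0.0069) and -1.23 ± 0.30 against 35 hours (adjusted p = 0.014). The second was lost without R1 at 35 hours (-1.10) or R1 at 4 days (-1.06). The R1 time course showed a smaller change of Usp29, from 8.26 CPM at day 0 to 6.94 CPM at day 4 of LFAI. That is a log2 fold of -0.25, where R1 in the two-line set had -1.64. Zim1, a zinc finger gene, reached at most 2.13 CPM in the 8 two-line libraries. It was higher in LIM than in L2i (2.16 ± 0.65, adjusted p = 0.049), a call lost when any 1 of 7 of the 8 libraries was left out and kept without CGR8 in L2i (3.04). Without R1 in L2i it was 1.55. Zim1 was lower at 4 days than in LIM (-2.33 ± 0.67, adjusted p = 0.030), which was lost without R1 (-2.55) or CGR8 (-2.14) at 4 days, or without R1 (-2.21) or CGR8 (-2.45) in LIM. At day 4 of the time courses Peg3 was at 172 CPM in LIM and 214 CPM in LFAI, up from 47.4 CPM at day 0. The day 4 LFAI level was thus above day 0, unlike the two-line R1 libraries, where 4 days of LFAI (77.3 CPM) equalled L2i (76.4 CPM).

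Peg10 and Sgce share a promoter region on chromosome 6 and run in opposite directions. Peg10 is a retrotransposon-derived gene that the placenta requires, and Sgce encodes epsilon-sarcoglycan. Peg10 was at 56.1 and 37.5 CPM in L2i, 493 and 199.9 CPM in LIM, 42.3 and 33.7 CPM at 35 hours and 72.4 and 16.3 CPM at 4 days. LIM was above the rest in both lines, and R1 was above CGR8 in each medium. The log2 fold was 2.89 ± 0.64 in LIM against L2i (adjusted p = 0.016) and -2.96 ± 0.65 at 4 days against LIM (adjusted p = 0.010). The first was lost without R1 (3.21) or CGR8 (2.62) in L2i or R1 in LIM (2.10). The second was lost without R1 in LIM (-2.18), and was -4.40 without R1 and -2.27 without CGR8 at 4 days.

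Sgce was at 1.01 and 1.79 CPM in L2i, 12.1 and 6.60 CPM in LIM, 0.848 and 0.455 CPM at 35 hours and 9.25 and 4.38 CPM at 4 days. Unlike Peg10, Sgce was high in both LIM and 4 days. Its log2 folds against L2i were 2.75 ± 0.55 in LIM (adjusted p = 0.010) and 2.29 ± 0.55 at 4 days (adjusted p = 0.0092), and 4 days exceeded 35 hours by 3.37 ± 0.60 (adjusted p = 0.0029). Calls against L2i were lost without R1 in L2i (2.38 in LIM and 1.91 at 4 days), and without R1 in the higher group (2.25 and 1.66). Without R1 at 4 days the fold over 35 hours was 2.74. In the R1 time course in LIM, Sgce went from 3.22 CPM at day 0 to 1.44 CPM at day 4 and Peg10 from 39.3 to 32.0 CPM. Both were higher at day 4 of LFAI, Sgce at 8.01 CPM and Peg10 at 280 CPM.

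Farther along the same cluster, Ppp1r9a encodes the actin-binding protein neurabin. It was higher than in L2i in LIM (1.75 ± 0.22), at 35 hours (0.99 ± 0.21) and at 4 days (1.57 ± 0.22), from 12.2 and 12.6 CPM in L2i to between 21.4 and 48.7 CPM in the 6 other libraries. The 35 hours call was lost without R1 (0.99) or CGR8 (1.04) in L2i or R1 at 35 hours (0.79). With the line as a block, Ppp1r9a was also higher at 4 days than at 35 hours (0.59, adjusted p = 0.034). The day 0 level of the time course, 35.0 CPM, was close to the 28.6 CPM of day 4 of LIM. Asb4, a ubiquitin ligase subunit gene, stayed at or below 0.523 CPM in the 8 libraries. It had 0 counts at day 0 and 1.36 CPM at day 4 of LFAI, at least 6.20-fold higher than 3 counts would give.

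The Snrpn to Ube3a cluster on chromosome 7 matches the human Prader-Willi and Angelman region. Snrpn encodes a splicing factor of the brain, Magel2 and Ndn encode MAGE family proteins, Mkrn3 a ring finger protein and Peg12 a protein of the FRAT family that binds GSK3. Snrpn was at 38.3 and 32.3 CPM in L2i, 67.6 and 111 CPM in LIM, 150 and 80.1 CPM at 35 hours and 175 and 225 CPM at 4 days. Each of the 6 libraries outside L2i was above both of L2i. Log2 folds against L2i were 1.34 ± 0.32 in LIM, 1.70 ± 0.32 at 35 hours and 2.50 ± 0.33 at 4 days (adjusted p = 0.021, 0.0099 and 0.00043). Snrpn was also higher at 4 days than in LIM (1.16 ± 0.32, adjusted p = 0.025), lost without CGR8 at 4 days (0.96) or R1 in LIM (0.83). The call of LIM against L2i was lost without R1 (1.47) or CGR8 (1.22) in L2i or CGR8 in LIM (0.94), and the 35 hours call without R1 (1.85) or CGR8 (1.61) in L2i. Snrpn shares 37.3% of its exonic length with other genes of its strand, Snurf among them, so its counts may be incomplete. Snurf itself had 0 counts in every library.

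Magel2 rose after 4 days of LFAI from near nothing. It had 0 counts in R1 and 3 counts, 0.199 CPM, in CGR8 in L2i, and was at 1.06 and 2.08 CPM in LIM, 0.978 and 0.519 CPM at 35 hours and 10.1 and 8.30 CPM at 4 days. The 4 days libraries were above the other 6. The ratio of summed counts to L2i was 113 (95% counting interval 38.4 to 553) at 4 days and 19.5 (6.30 to 97.4) in LIM, with adjusted p of 0.00047 and 0.016. Summed over both lines, 4 days was at least 67.0-fold and LIM at least 11.5-fold above R1 in L2i alone. Against CGR8 in L2i alone, the ratios of both lines summed were 46.3 (15.7 to 226) at 4 days and 7.96 (2.58 to 39.8) in LIM. The LIM call was lost without R1 in L2i or CGR8 in LIM. Magel2 at 4 days also exceeded 35 hours by a log2 fold of 3.61 ± 0.70 and LIM by 2.54 ± 0.65. The latter call was lost without R1 (2.40) or CGR8 (2.67) at 4 days or R1 in LIM (2.13). The LFAI time course repeated the level, from 0.292 CPM at day 0 to 1.85, 6.78 and 12.5 CPM at days 2 to 4, while LIM ended at 0.378 CPM.

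Peg12 fell from 3.72 and 2.06 CPM in L2i and 5.26 and 4.52 CPM in LIM to 0.629 and 0.457 CPM at 4 days. Its log2 folds at 4 days were -2.40 ± 0.57 against L2i (adjusted p = 0.0086, lost without CGR8 at 4 days, -2.20) and -3.15 ± 0.57 against LIM (adjusted p = 0.0045). The R1 time course showed a smaller change of Peg12, from 7.67 CPM at day 0 to 5.58 CPM at day 4 of LFAI. That is a log2 fold of -0.45, where R1 in the two-line set had -2.36. Ndn ran from 4.35 to 16.7 CPM over the 8 libraries and was called in no comparison by the main edgeR fit. Against L2i, DESeq2 called it higher in LIM (1.07, adjusted p = 0.047) and at 4 days (0.98, adjusted p = 0.044). Limma-voom called it at 4 days against L2i (0.97, adjusted p = 0.049) and against 35 hours (1.13, adjusted p = 0.044), and not in LIM. With the line as a block it was called higher in LIM (1.11, adjusted p = 0.042) and at 4 days (1.04, adjusted p = 0.030) than in L2i, and at 4 days than at 35 hours (1.09, adjusted p = 0.030). Mkrn3 stayed between 4.45 and 7.67 CPM. Ube3a, the ubiquitin ligase gene of Angelman syndrome, stayed between 95.9 and 133 CPM, and none of its 5 folds was called, from -0.19 to 0.10. Opposite-strand genes cover 27.3% of the Ube3a exons, and the strand setting of the counting is not given in the sources used here.

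**Figure D4:**
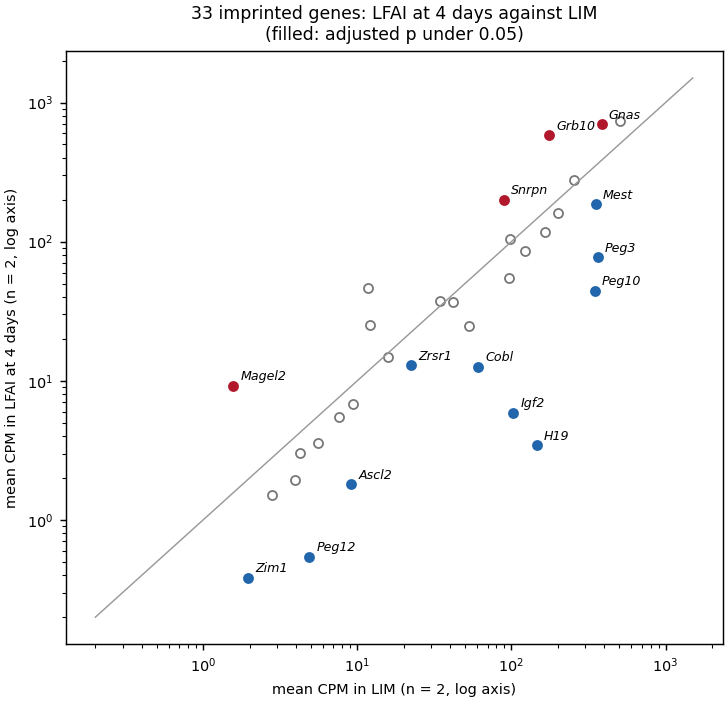
Mean CPM of the 33 tested imprinted genes in LIM (horizontal, log axis) and in LFAI at 4 days (vertical, log axis), n = 2 per group, where the line marks equal levels and filled named points have an adjusted p under 0.05. The 4 filled points above the line are Grb10, Gnas, Snrpn and Magel2, and the 10 filled points below it include H19, Igf2, Peg3 and Peg10.

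Distal on chromosome 7, the Kcnq1 domain holds maternally expressed growth inhibitors that the noncoding RNA Kcnq1ot1 represses on the paternal copy. Cdkn1c encodes the cell cycle inhibitor p57. It was at 5.70 and 3.85 CPM in L2i, 74.9 and 31.1 CPM in LIM, 49.1 and 27.5 CPM at 35 hours and 25.2 and 24.4 CPM at 4 days. The 6 libraries outside L2i were above both L2i libraries. Log2 folds against L2i were 3.46 ± 0.46 in LIM, 2.99 ± 0.45 at 35 hours and 2.36 ± 0.44 at 4 days (adjusted p = 0.0016, 0.0036 and 0.0029), and the LIM fold was 2.70 without R1 in LIM. With the line as a block Cdkn1c was lower at 4 days than in LIM (-0.96, adjusted p = 0.020). In the time courses it went from 0.95 CPM at day 0 to 19.6 CPM in LIM and 62.2 CPM in LFAI at day 4, and was higher than day 0 at days 1 to 4 of LIM and days 2 to 4 of LFAI. An opposite-strand gene model covers 30.7% of its exons.

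Phlda2, a placental growth inhibitor gene, was at 4.83 and 11.0 CPM in L2i, 13.2 and 10.9 CPM in LIM, 6.26 and 6.88 CPM at 35 hours and 28.9 and 21.8 CPM at 4 days. The 4 days libraries exceeded L2i by a log2 fold of 1.69 ± 0.37 (adjusted p = 0.0057, 2.38 without CGR8 in L2i) and 35 hours by 1.95 ± 0.37 (adjusted p = 0.0042). Its LIM fold, 0.62 ± 0.36, and its 35 hours fold, -0.25 ± 0.37, were not called, and the line block called it higher at 4 days than in LIM (1.08, adjusted p = 0.043). Ascl2, a trophoblast transcription factor gene, was instead highest in LIM, at 5.38 and 12.8 CPM against 1.93 and 1.59 CPM in L2i, 4.17 and 5.65 CPM at 35 hours and 1.45 and 2.16 CPM at 4 days. Its log2 fold in LIM was 2.36 ± 0.49 (adjusted p = 0.012), lost without R1 (2.51) or CGR8 (2.24) in L2i or CGR8 in LIM (1.61). Ascl2 at 4 days was lower than in LIM (-2.34 ± 0.49, adjusted p = 0.0090), lost without R1 at 4 days (-2.07) or CGR8 in LIM (-1.58). It was also lower than at 35 hours (-1.44 ± 0.49, adjusted p = 0.046), lost without any 1 of the 6 libraries of L2i, 35 hours and 4 days, with -1.78 to -1.18.

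Kcnq1ot1 itself stayed between 2.66 and 5.23 CPM, with folds from -0.54 to 0.28 and no call. The day 0 library of the time course held 23.5 CPM of it, and the later time course libraries 18.4 to 45.5 CPM. The levels of the experiments therefore do not overlap, and the experiments differ in coating and sequencing chemistry, which cannot be told apart. Igf2r, on chromosome 17, encodes the receptor that clears IGF2 and is expressed from the maternal copy, with Airn as its paternal noncoding repressor. It ran from 103 to 191 CPM. Igf2r was lower at 4 days than in L2i by -0.53 ± 0.19 (adjusted p = 0.044), a call lost without CGR8 in L2i (-0.35), R1 (-0.53) or CGR8 (-0.52) at 4 days or CGR8 in LIM (-0.53). With the line as a block it was also lower at 35 hours than in L2i (-0.48, adjusted p = 0.046) and at 4 days than in LIM (-0.48, adjusted p = 0.030). Airn reached 0.178 CPM at most in these 8 libraries and 0.930 CPM at day 4 of LFAI in the time course.

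Grb10 and Cobl are neighbours on chromosome 11, and in LIM and at 4 days Grb10 rose while Cobl fell. Grb10 encodes an adaptor that restrains insulin signalling, and Cobl an actin nucleator. Grb10 was at 51.1 and 44.8 CPM in L2i, 242 and 109 CPM in LIM, 105 and 80.9 CPM at 35 hours and 601 and 563 CPM at 4 days. The groups did not overlap between L2i, 35 hours, LIM and 4 days. The log2 fold against L2i was 1.87 ± 0.32 in LIM (adjusted p = 0.0051, 1.20 without R1 in LIM) and 3.60 ± 0.34 at 4 days (adjusted p = 7.7e-05). Grb10 at 4 days also exceeded 35 hours (2.65 ± 0.33) and LIM (1.73 ± 0.32, 2.40 without R1 in LIM). The 35 hours fold, 0.95 ± 0.31, was not called by the main fit (adjusted p = 0.077). It was called with the line as a block (adjusted p = 0.020) and by DESeq2 (adjusted p = 0.0099).

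Cobl fell in LIM and by 4 days of LFAI. It was at 282 and 327 CPM in L2i, 91.8 and 203 CPM at 35 hours, 41.6 and 80.0 CPM in LIM and 15.2 and 10.1 CPM at 4 days. Log2 folds were -2.32 ± 0.41 in LIM against L2i (adjusted p = 0.0058) and -4.59 ± 0.46 at 4 days (adjusted p = 0.0001). At 35 hours the fold of -1.05 ± 0.39 was not called by the main fit (adjusted p = 0.11). It was called with the block (-1.12, adjusted p = 0.040) and by DESeq2 (-1.04, adjusted p = 0.027). Cobl at 4 days was lower than at 35 hours (-3.54 ± 0.44, -2.86 without CGR8 at 35 hours) and than in LIM (-2.26 ± 0.42, lost without CGR8 at 4 days, -2.01). In the time course Cobl went from 362 CPM at day 0 to 148 CPM at day 4 of LIM and 21.3 CPM at day 4 of LFAI, lower at each day than at the one before in LIM and from day 2 to day 4 in LFAI. Grb10 went from 90.4 CPM to 117 and 269 CPM.

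Among single loci, Plagl1 fell in each medium against L2i. It encodes a zinc finger transcription factor that regulates other imprinted genes. Plagl1 was at 93.5 and 28.6 CPM in L2i, 3.94 and 3.92 CPM in LIM, 3.20 and 2.01 CPM at 35 hours and 3.78 CPM and 1 count, 0.0653 CPM, at 4 days. Both L2i libraries were above the other 6. Log2 folds were -3.96 ± 0.92 in LIM, -4.55 ± 0.96 at 35 hours and -4.98 ± 0.99 at 4 days (adjusted p = 0.019, 0.016 and 0.0038). The LIM call was lost without R1 in L2i (-2.85), R1 in LIM (-3.95) or CGR8 in LIM (-3.95), and was -4.57 without CGR8 in L2i. The 35 hours call was lost without R1 in L2i (-3.44), R1 at 35 hours (-4.91) or CGR8 at 35 hours (-4.25), and was -5.14 without CGR8 in L2i. The 4 days fold was -3.89 without R1 and -5.60 without CGR8 in L2i, and -4.01 without CGR8 at 4 days. Against CGR8 at 4 days alone, with its 1 count, L2i summed over both lines was higher by a ratio of 1024 (184 to 40470). That ratio also holds the line difference, since R1 was above CGR8 in L2i. The time course went from 179 CPM to 49.4 CPM at day 4 of LIM and 7.37 CPM at day 4 of LFAI.

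Nnat, which encodes the neuronal membrane protein neuronatin, had 0.322 CPM in R1 and 0 counts in CGR8 in L2i, where 3 counts would be 0.199 CPM. It was at 13.9 and 9.51 CPM in LIM, 4.31 and 0.714 CPM at 35 hours and 79.4 and 13.9 CPM at 4 days. Both LIM and both 4 days libraries were above those of L2i and 35 hours, and R1 was above CGR8 throughout. Log2 folds against L2i were 5.92 ± 1.27 in LIM (adjusted p = 0.013) and 7.92 ± 1.28 at 4 days (adjusted p = 0.0013), neither called by limma-voom. Summed over both lines, LIM was at least 58.5-fold and 4 days at least 237-fold above CGR8 in L2i alone. These bounds also hold the line difference. The LIM call was lost without R1 or without CGR8 (5.15) in L2i. The 4 days fold was 7.13 without CGR8 in L2i, 6.21 without R1 and 8.68 without CGR8 at 4 days. Nnat at 4 days exceeded 35 hours by 4.21 ± 0.97 (adjusted p = 0.0098), lost without R1 at 4 days (2.47), and was 5.99 without R1 at 35 hours, 3.44 without CGR8 at 35 hours and 4.96 without CGR8 at 4 days. With the block Nnat was also higher at 35 hours than in L2i (3.76, adjusted p = 0.012) and at 4 days than in LIM (1.49, adjusted p = 0.032).

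Gnas encodes the stimulatory G protein alpha subunit from a locus with maternal, paternal and biallelic transcripts, which the counts merge. It was at 125 and 84.6 CPM in L2i, 427 and 342 CPM in LIM, 212 and 146 CPM at 35 hours and 655 and 744 CPM at 4 days. The 4 groups did not overlap. Log2 folds against L2i were 1.88 ± 0.24 in LIM and 2.74 ± 0.24 at 4 days (adjusted p = 0.0014 and 5.8e-05), and with the block also 0.77 at 35 hours (adjusted p = 0.018). Gnas at 4 days exceeded 35 hours (1.97 ± 0.24) and LIM (0.86 ± 0.23, adjusted p = 0.023), the latter lost without R1 (0.96) or CGR8 (0.76) at 4 days or CGR8 in LIM (0.71). Opposite-strand genes, Nespas among them, cover 22.0% of its exons.

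Mest, an enzyme gene of the alpha/beta hydrolase fold, was at 82.5 and 48.7 CPM in L2i, 399 and 306 CPM in LIM, 231 and 169 CPM at 35 hours and 219 and 152 CPM at 4 days. L2i was below the other groups and R1 was above CGR8 in each. Its log2 folds against L2i were 2.42 ± 0.30, 1.60 ± 0.29 and 1.5 ± 0.29 (adjusted p = 0.0012, 0.0079 and 0.0032). Mest at 4 days was lower than in LIM (-0.93 ± 0.28, adjusted p = 0.038), lost without CGR8 at 4 days (-0.70), R1 in LIM (-0.74) or CGR8 in LIM (-1.10). The gene Copg2 covers 23.1% of its exons on the opposite strand. Per kb of exon, Mest and Snrpn had the highest mean level of the 36 genes over the 8 libraries, 50.9 CPM per kb each, while Rtl1, Airn, Kcnq1ot1 and Asb4 were below 0.05 CPM per kb.

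Zdbf2, a zinc finger gene, was at 50.1 and 58.2 CPM in L2i and between 68.1 and 129 CPM elsewhere. Its log2 folds were 1.18 ± 0.20 in LIM, 1.16 ± 0.20 at 35 hours (lost without R1 in L2i, 1.06) and 0.67 ± 0.20 at 4 days (lost without R1 in L2i, 0.55, or R1 at 4 days, 0.34). Zrsr1, a splicing factor retrogene, fell at 4 days, from 25.0 and 23.97 CPM in L2i to 13.5 and 12.3 CPM (-0.92 ± 0.19, adjusted p = 0.0043). It was also lower at 4 days than at 35 hours (-0.58 ± 0.19), lost without any 1 of the 4 libraries compared (-0.64 to -0.54), and than in LIM (-0.80 ± 0.19), lost without R1 (-0.86) or CGR8 (-0.75) at 4 days or CGR8 in LIM (-0.63). Impact, a translation regulator gene, stayed between 132 and 211 CPM with no call. Slc38a4, an amino acid transporter gene, was at 15.7 and 108 CPM in L2i, 35.7 and 157 CPM in LIM, 25.4 and 105 CPM at 35 hours and 60.9 and 48.7 CPM at 4 days. No fold of Slc38a4 between media was called, and CGR8 was above R1 in each medium except 4 days of LFAI.

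The lines are compared first as a description, with 1 library per line and medium. Log2 CPM of R1 and CGR8 correlated at 0.937 to 0.960 over the 33 genes and at 0.974 to 0.983 over all tested genes. CGR8 and R1 differed by 2-fold or more in 10 of the 33 genes in L2i, 7 in LIM, 6 at 35 hours and 6 at 4 days, against 11.5%, 10.3%, 10.8% and 8.1% of all genes. Median absolute differences were 0.57, 0.38, 0.43 and 0.33 for the 33 genes and 0.24 to 0.27 for all genes. Several members lie near 1 CPM, and the part of low counts in these shares was not tested.

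Tested over the 4 media with the medium as a term, 2 of the 33 genes were lower in CGR8 and none was higher, where 0.541% of all genes were called (0.29% higher and 0.251% lower). H19 was lower by a log2 difference of -2.51 ± 0.26 (adjusted p = 0.0041), in 4 of 4 media, and was -3.12 without R1 in LIM. Igf2 was lower by -1.67 ± 0.29 (adjusted p = 0.048), also in 4 of 4 media, a call lost without R1 (-1.67) or CGR8 (-1.60) in LIM and in 3 other alternatives. H19 and Igf2 were both not called with no term for the medium. The 0 genes higher by edgeR compare with 0 by DESeq2 and limma-voom, and 11 of the 33 had an unadjusted p under 0.05, of which Slc38a4 and Igf2r were higher. Slc38a4 was higher in CGR8 by 2.77 in L2i, 2.13 in LIM and 2.05 at 35 hours and lower by -0.32 at 4 days. In L2i of the two-line set R1 held 15.7 CPM and CGR8 108 CPM. R1 in the time courses held 181 CPM at day 0 and 97.9 CPM at day 4 of LFAI. The time courses had no CGR8 library, so line and R1 culture cannot be told apart for this gene. The fitted difference of Slc38a4, 1.70 ± 0.42, was not called (adjusted p = 0.15), and it was called without R1 or without CGR8 at 4 days (2.32 each). Leaving out either of these libraries thus gave 1 gene higher in CGR8, and added Cdkn1c to the lower ones (-0.93 each). Nnat (-1.82 ± 0.39), Peg10 (-1.08 ± 0.25) and Mest (-0.53 ± 0.09) were below R1 in each medium and were not called by the main edgeR fit (adjusted p = 0.098, 0.12 and 0.052). Limma-voom called each of them lower in CGR8 (adjusted p = 0.035, 0.049 and 0.035). DESeq2 called Mest (adjusted p = 0.00018) but not Nnat or Peg10. Nnat was called without R1 (-2.59) or CGR8 (-2.58) in LIM, and Peg10 without R1 (-1.34) or CGR8 (-1.33) at 35 hours. The lines differ in passage too, and line and passage cannot be told apart.

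**Figure D5:**
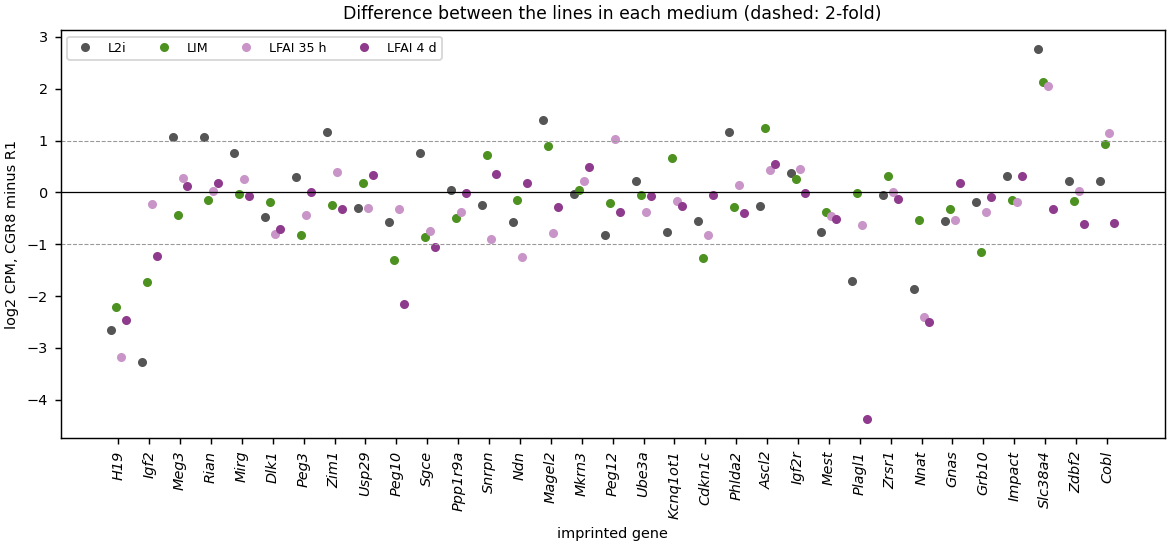
Log2 CPM of CGR8 minus R1 (vertical) for each of the 33 tested imprinted genes (horizontal), with 1 point per medium, coloured by medium, and dashed lines at 2-fold. H19 and Igf2 lie below 0 in each of the 4 media, and Slc38a4 lies at 2.05 to 2.77 in 3 media and at -0.32 at 4 days of LFAI.

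By parental copy, as known from other tissues, 13 maternally and 19 paternally expressed genes were tested. In LIM, 9 of the 13 and 10 of the 19 were higher and 1 of each was lower, against 11.3% higher and 7.81% lower over all genes, with median log2 folds of 2.16 and 1.18. At 35 hours, 5 of the 13 and 3 of the 19 were higher and 0 and 1 were lower, against 7.35% and 7.16%, with medians of 1.30 and 0.09. After 4 days, 7 of the 13 and 8 of the 19 were higher and 2 and 4 were lower, against 21.5% and 23.3%, and the medians were 1.69 and 0.30. The difference between the classes was not tested.

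At days 1 to 4 of LIM and days 2 to 4 of LFAI, Plagl1 was lower than day 0 by 2-fold or more and Cdkn1c was higher by 2-fold or more. At day 4 of LIM, 7 of the 31 members at 1 CPM or more were higher than day 0 by 2-fold with separate counting intervals and 3 were lower (Sgce, Plagl1 and Cobl), against 12.2% of all such genes (6.3% higher and 5.87% lower). The higher ones were H19, Igf2, Meg3, Rian, Peg3, Snrpn and Cdkn1c. At day 4 of LFAI, 18 of 34 were higher and 2 were lower (Plagl1 and Cobl), against 27.4% of all (15.4% higher and 12.1% lower). Nnat reached 26.3 CPM there from 1.61 CPM, Phlda2 24.04 CPM from 3.14 CPM and Mest 205 CPM from 81.6 CPM. Median log2 folds of the members were 0.36 in LIM and 1.24 in LFAI. Counting intervals cover counting error only, since there was 1 library per point.

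R1 was used in both experiments, with different L2i levels. The log2 fold of R1 in LFAI at 4 days over L2i had the same sign as day 4 over day 0 in 30 of the 33 genes (Pearson 0.811), and LIM after passages had the sign of day 4 of LIM in 24 of 33 (0.597). The widest gaps in LIM, two-line value first, were H19 (8.30 and 1.42) and Nnat (4.98 and 0.21), and Sgce had opposite signs (3.43 and -1.09). The lengths in LIM differ, so the values stand side by side with no test.

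Factors that keep or change imprints were counted as a list of 20 genes, each tested. In LIM, 5 were higher and 3 lower than in L2i (40% called, against 19.1% of all genes), at 35 hours 5 and 3 (40% against 14.5%), and at 4 days 4 and 12 (80% against 44.8%). At 4 days against 35 hours they were 3 and 11 (70% against 36.8%), and against LIM 2 and 11 (65% against 29.5%). Zfp57, which binds methylated TGCCGC, was at 289.5 and 353 CPM in L2i, 373 and 347 CPM in LIM, 379 and 548 CPM at 35 hours and 41.2 and 33.1 CPM at 4 days (-3.11 ± 0.21 against L2i, adjusted p = 1.7e-05). Both 4 days libraries were below the other 6. Dnmt3l, a cofactor of the DNA methyltransferases that set methylation anew, was at 40.8 and 21.3 CPM in L2i, 630 and 602 CPM in LIM, 597 and 469 CPM at 35 hours and 10.7 and 10.5 CPM at 4 days. In the time course, with 1 library per point, Dnmt3l at day 4 of LFAI (173 CPM) was instead above day 0 (24.3 CPM). Zfp57 was at 424 CPM at day 0 and 100 CPM at day 4 of LFAI. Dnmt3b, such a methyltransferase, was higher than in L2i in LIM (3.06 ± 0.27), at 35 hours (3.31 ± 0.28) and at 4 days (4.30 ± 0.29). Dppa3, which protects maternal methylation in the zygote, was at 115 and 86.8 CPM in L2i and below 0.2 CPM at 4 days. Dnmt3b and Dppa3 also stand in the marker lists of the states. By edgeR 0 of the 20 were called between the lines, and 2 had an unadjusted p under 0.05.

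Of 45 listed genes that neighbour the clusters, 43 were in the files and 33 were tested. In LIM 5 were higher and 4 lower than in L2i (27.3% called, against 19.1% of all genes), at 35 hours 3 and 3 (18.2% against 14.5%), and at 4 days 10 and 10 (60.6% against 44.8%). Slc22a3, a cation transporter gene beside Igf2r, was at 0 to 0.0594 CPM in L2i, LIM and 35 hours and at a mean of 43.8 CPM at 4 days (adjusted p = 3.1e-05 against L2i). Calcr, the calcitonin receptor gene near Peg10, had 0 counts in L2i and a mean of 21.3 CPM at 4 days (adjusted p = 2.6e-05). Zfp264, near Peg3, fell from a mean of 26.0 CPM in L2i to 0.259 CPM at 4 days, while Adam23, near Zdbf2, was higher than in L2i in LIM (1.30 ± 0.18), at 35 hours (2.25 ± 0.18) and at 4 days (0.75 ± 0.18). At day 4 of LFAI in the time course, Slc22a3 was at only 0.501 CPM and Calcr at 11.4 CPM, both from 0 at day 0. Zfp264 was at 16.0 CPM there, from 43.8 CPM, and Adam23 at 137 CPM, from 58.5 CPM.

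Markers of other cell types differed between the media, and their part in the results was not tested. The 8 fibroblast or feeder markers summed to 10.1 and 23.4 CPM in LIM and 3.17 and 2.06 CPM in L2i, with Thy1 giving 5.20 and 19.8 CPM in LIM, and 3 and 2 of the 8 were over 1 CPM. Col1a1 was at 2.57 and 2.14 CPM in LIM and at 0.322 and 0.332 CPM in L2i. Col1a2 was at 1.69 and 0.951 CPM in LIM and at 0.414 and 0.398 CPM in L2i. Col3a1 and Lum were at or below 0.13 CPM in LIM. The 9 primitive endoderm markers summed to 18.1 and 13.8 CPM in LIM and 4.60 and 4.32 CPM in L2i. In each LIM library 3 of the 9 were over 1 CPM, namely Gata4, Dab2 and Pdgfra, and each was above its L2i levels. Gata4 was at 7.01 and 5.05 CPM in LIM and at 1.79 and 0.93 CPM in L2i. Dab2 was at 7.2 and 3.92 CPM in LIM and at 0.965 and 1.13 CPM in L2i. Pdgfra was at 2.19 and 2.675 CPM in LIM and at 0.919 and 1.59 CPM in L2i. Ttr was at 0 in LIM, and Gata6 and Sox17 were at or below 0.18 CPM. The 5 neural markers summed to 315 and 227 CPM in LIM and 245 and 134 CPM in L2i, with 5 of the 5 over 1 CPM in each LIM library and 2 and 4 in L2i. Pax6 was at 57.7 and 25.9 CPM in LIM and at 5.01 and 3.98 CPM in L2i, and Map2 at 39.9 and 15.6 CPM and 0.735 and 2.52 CPM. Sox1 and Neurod1 were also above their L2i levels in both lines. Tubb3, the largest part of the neural sum, was lower in R1 and higher in CGR8. It was at 187 and 173 CPM in LIM and at 238 and 126 CPM in L2i. In LIM, R1 was above CGR8 for each of the 5 neural markers, as for H19 and Igf2, and a link was not tested. In LFAI the fibroblast markers summed to 6.52 and 7.01 CPM at 35 hours and 11.5 and 15.4 CPM at 4 days. At 4 days Thy1 gave 7.74 and 11.4 CPM, Col1a2 2.14 and 3.46 CPM and Col1a1 1.07 and 0.196 CPM. Col3a1 and Lum were at or below 0.252 CPM there. The primitive endoderm markers summed to 2.94 and 4.29 CPM at 35 hours and 8.06 and 4.84 CPM at 4 days, and the neural markers to 133 and 113 CPM and 153 and 77.0 CPM. The 7 trophoblast markers summed to 116 and 111 CPM in L2i, mostly Tfap2c at 97.7 and 99.9 CPM, to 71.2 and 64.4 CPM in LIM, to 13.2 and 19.0 CPM at 35 hours and to 19.7 and 9.67 CPM at 4 days. The members moved apart in LIM. Tfap2c was at 48.5 and 45.6 CPM there, and Cdx2 at 0.0626 and 0.0594 CPM, from 6.89 and 5.18 CPM in L2i. Eomes was at 12.5 and 9.75 CPM in LIM, from 3.54 and 3.25 CPM. Hand1 was at 1.94 and 1.49 CPM, from 0 in both, and Gata3 at 6.64 and 3.39 CPM, from 3.72 and 0.730 CPM. Krt7 was lower in R1 and higher in CGR8, and Elf5 was at or below 0.357 CPM. In such bulk libraries, fewer cells with a gene on and less RNA per cell cannot be told apart.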

How the data were processed

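RNA from mouse embryonic stem cells was sequenced with a stranded poly(A) kit, and the deposited files hold whole-number counts per Ensembl gene made by the authors with HISAT2 2.0.4 and HTSeq 0.6.1, per the submitters' processing notes. The strand setting and multi-mapping rule are not given in the sources used here. Reads assigned to no gene (47.7% to 51.9%) were left out. The 8 two-line libraries were fitted with edgeR 4.0.16 in R 4.3.3 (TMM, filterByExpr, quasi-likelihood F-test, 15525 genes, 4 residual degrees of freedom), adjusted p-values (Benjamini-Hochberg) taken over the whole table and a threshold of 0.05. SEs and adjusted p-values come from that fit. CGR8 against R1 used the medium as a term. DESeq2 1.42.0 and limma 3.58.1 (voom) were alternatives. The pairing comes from the cell line: deviations of the same line correlated at 0.041 to 0.395 between groups, and the line was a block in an alternative fit. Time course libraries were scaled separately, and a difference was counted at 2-fold or more with separate 95% Poisson intervals and 1 CPM or more in either library. The fit was tested on simulated data for LIM against L2i (14925 genes, 200 of them changed). The simulated spread between libraries (dispersion) was 0.02 for every gene, with no line difference. There it recovered 66.3% of 2-fold and 97.9% of 4-fold changes, and 4.2% of its calls were false. Real libraries of a group were of different lines and could spread more, as H19 did in LIM (146 ± 134 CPM), so these rates need not hold for them. Members, gene lists and the naming of every member were chosen with earlier results of these data known.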

Additional observations from a re-analysis of the deposited data

Results flagged for a closer look

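In 3 comparisons the lines moved in opposite directions by a log2 fold of 1 or more each, and the difference between the lines was not tested, since each line had 1 library per medium. Igf2 after 35 hours of LFAI against L2i had a log2 fold of -2.02 in R1 and 1.02 in CGR8, at levels below 2 CPM. Slc38a4 after 4 days of LFAI against L2i had 1.95 in R1 and -1.14 in CGR8. In the R1 time course, with 1 library per point, Slc38a4 at day 4 of LFAI over day 0 had -0.89. Slc38a4 at 4 days against 35 hours of LFAI had 1.26 in R1 and -1.11 in CGR8.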

How the results depend on the processing

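Of 1154 alternative values for 81 called or tested gene results, 1036 kept direction and side of the threshold, 118 lost the call and 0 reversed. Counts of imprinted genes called moved by over 1.5 times as follows, and the cause was not tested. With no filter on low counts, 35 hours of LFAI against L2i gave 14 higher and 4 lower, 4 days against LIM gave 7 higher, and CGR8 against R1 gave 2 higher and 8 lower. DESeq2's Wald test gave 2 lower at 35 hours, and the cell line as a replicate block gave 3 lower there. Limma-voom gave 2 lower for 4 days against 35 hours and 5 lower for CGR8 against R1. For CGR8 against R1, DESeq2 size factors gave 1 lower and a fit with no term for the medium gave 0 lower. Leaving out 1 library gave 13 to 20 higher and 1 to 2 lower in LIM, 5 to 11 and 0 to 1 at 35 hours, and 12 to 17 and 4 to 6 at 4 days, each against L2i. It gave 5 to 8 higher and 2 to 5 lower for 4 days against 35 hours, 1 to 6 and 4 to 11 for 4 days against LIM, 0 to 1 and 2 to 3 for CGR8 against R1, and 22 to 27 for any difference. The replicate block changed no call other than those given beside the results and lost none. The time course counts were the same under DESeq2 size factors and a prior count of 0.5. With 2 libraries per group, leaving out 1 assumes that the lone library varies like the other groups, and genes near 1 CPM had few counts behind their folds.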
